A study of Mus musculus with 75 samples.

Results

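The inguinal lymph nodes, which drain the skin and fat of the groin and flank, were compared between aged mice of 22 months and young mice of 3 months. All were untreated C57BL/6 mice, labelled wild type (WT), perfused with PBS before the nodes were excised and snap frozen, and total RNA was purified with miRNeasy (Qiagen), per the labels' protocols. The members are the 6 libraries labelled as inguinal lymph nodes, 3 aged and 3 young, out of 75 samples in a study of 11 tissues and of the choroid plexus of parabiotic mice. Each library comes from 1 mouse, and mice numbered alike in the aged and young groups are different animals. The labels give no sex. Every library held Xist, transcribed from the inactive X chromosome, at 42.0 to 77.4, and Ddx3y, a gene of the Y chromosome, did not exceed 0.319; both genes were chosen after their values were seen.

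A lymph node holds B cells in follicles and T cells in the surrounding cortex, on a scaffold of stromal cells that make the chemokines Cxcl13, Ccl19 and Ccl21. Naive lymphocytes enter from blood through high endothelial venules, whose sulphated glycoproteins such as Glycam1 serve as ligands for rolling lymphocytes, and leave through lymphatic sinuses lined by endothelium and macrophages. The medulla holds plasma cells and macrophages, and mast cells lie in the capsule and along vessels. Output of naive T cells from the thymus declines with age in mice. Nodes of the groin are embedded in white fat.

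Values are the authors' deposited signal per RefSeq transcript, and 1 read was worth 1.49, 1.02 and 1.68 in aged mice 1, 2 and 3, against 1.52, 0.814 and 1.33 in young mice 1, 2 and 3. The depth, as the sum of a library divided by the value of 1 read, was 377941, 541229 and 383315 reads in aged mice, against 371029, 702242 and 414923 reads in young mice. The values are not divided by transcript length, so levels are compared between libraries for the same gene and never between genes. In what follows, per-library values stand in the order of mice 1, 2 and 3 in each age group, and a difference is the mean log2 value of aged minus young mice, ± SE, fitted without aged mouse 3 unless that mouse is named.

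The library of aged mouse 3 stood apart from the other 5. Lep, the satiety hormone of fat cells, was 4.46, 5.09 and 792 in aged mice, against 1.52, 4.88 and 0 in young mice. Adipoq, the fat cell hormone adiponectin, was 32.7, 25.5 and 1917 in aged mice, against 211, 75.7 and 9.30 in young mice. Its most abundant gene was Fabp4, a fatty acid carrier of fat cells and endothelium, at 14600, whereas Actb or Tmsb4x led in every other library. The 30 fat cell genes together made up 0.219%, 0.239% and 8.37% of the signal in aged mice, against 0.928%, 0.467% and 0.139% in young mice. Blood endothelial genes made up 3.35% of that library and at most 0.378% of any other, and globin and other erythroid genes made up 4.67%.

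Lymphocyte genes were low in that library. The 19 B cell identity genes held 0.335% of its signal, against 1.37% to 1.66% in the other 5 libraries, and the 20 T cell identity genes held 0.028%, against 0.259% to 0.422%. Of 20 T cell identity genes, 5 were listed at 0 there, and of 17 genes of high endothelial venules, 8 were. Cd3e was still present at 10.1 and Cd74, the invariant chain of MHC class II, at 1015. Across all genes tested, its log2 values correlated with the other inguinal libraries at 0.55 to 0.614, against 0.848 to 0.898 among the other 5, as a description over genes. In the other 5 libraries no T cell identity gene and at most 1 B cell identity gene was listed at 0, and Glycam1 ran from 1111 to 4072. Gene and list values below are therefore given without aged mouse 3 and, for nearly all, with it.

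**Figure D1:**
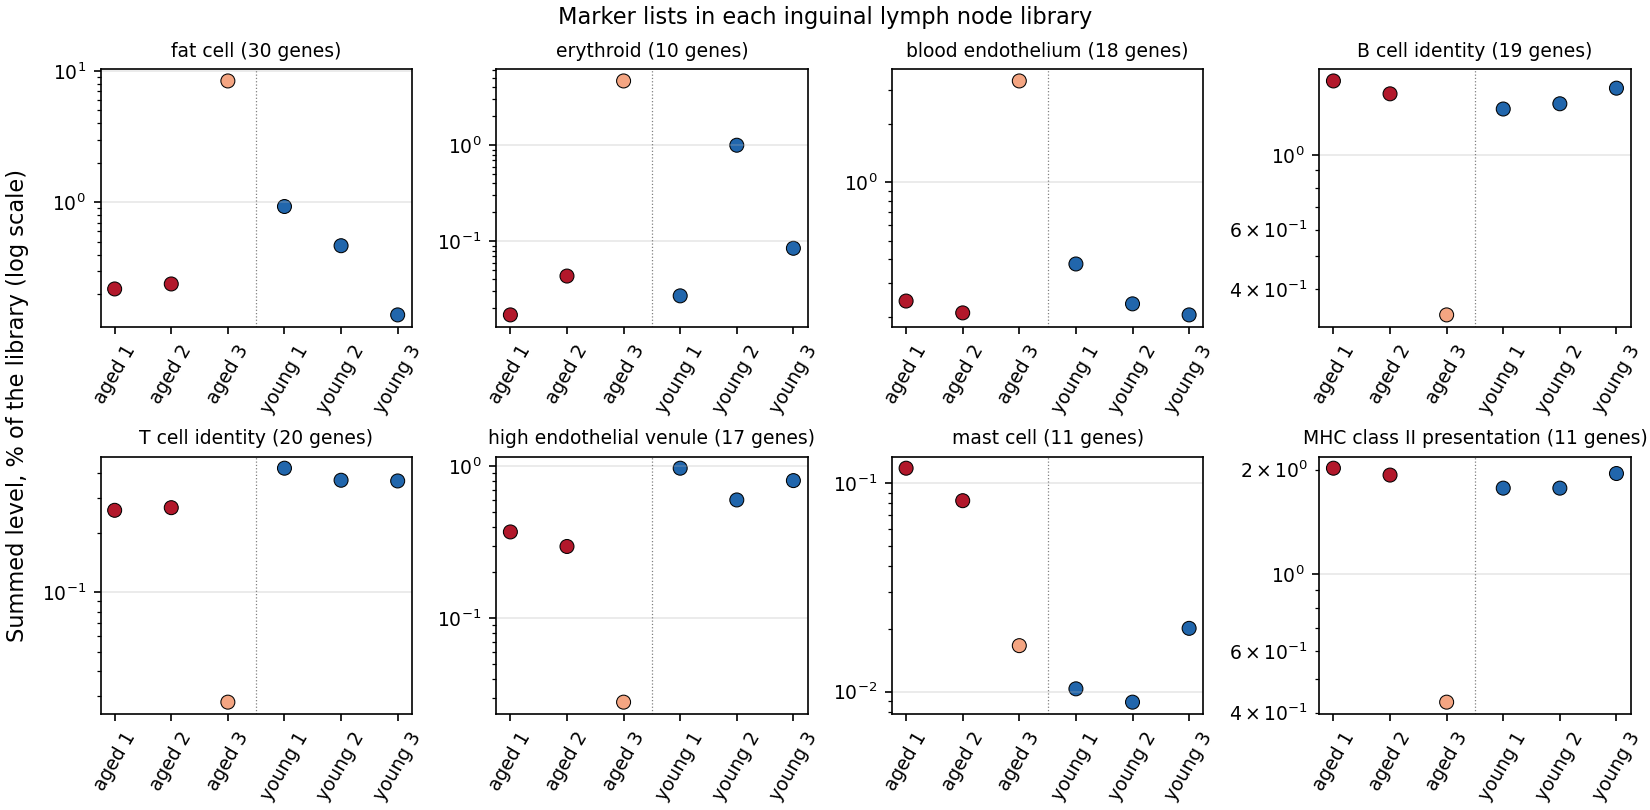
Summed level of 8 marker lists as a percentage of each library (vertical axis, log scale) in the 3 aged libraries, left of the dotted line, and the 3 young libraries, right of it; 1 point is 1 library. The paler point, aged mouse 3, holds 8.37% fat cell genes and 0.028% T cell identity genes.

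Young mouse 2 also carried other material: erythroid genes made up 1.00% of its signal (0.0845% or less in the other libraries except aged mouse 3), liver genes 0.271% (0.0634% to 0.0939% in those libraries) and colon genes 0.0976% (0.00896% or less in those libraries). The part of this in the results was not tested beyond leaving the library out. That gave 39 called genes in place of 41, of which 25 were among the 41. No erythroid, liver or colon gene was called, but only 5, 7 and 2 of them were tested. With 0.429% of all genes tested called, so few genes cannot show whether that material bears on the calls.

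Without aged mouse 3, 41 of 9562 genes tested passed at a Benjamini-Hochberg adjusted p under 0.05 with limma, which is 0.429%: 23 were higher in the aged mice (0.241%) and 18 were lower (0.188%). The test used log2 of the value plus 1.33, the median value of 1 read, so fold changes of low genes are understated. A further measure of the background is that 12.9% of the genes tested were higher in both aged libraries than in all 3 young libraries and 12.1% were lower; the unadjusted p was under 0.05 for 821 genes (8.59%). Over all genes tested 51.5% of the differences were positive and the median was 0.01 on the log2 scale; with all 6 libraries 47.4% were positive and the median was -0.03. A gene was tested where 2 of the 5 libraries reached 6.64, which 1 age group alone can supply, and the filter can set the direction of a member that passed in that way. Lists are therefore also described from a fit with no filter, which held 16769 genes, of which 49.0% had a positive difference, with a median of -0.01. With all 6 libraries, 0 of 8972 genes passed with limma (0%), and 409 had an unadjusted p under 0.05 (4.56%). The smallest adjusted p of that fit was 0.142, for C130026I21Rik, and it was 0.83 or more for every other gene named here. When limma weighted each library by its fit to the model, aged mouse 3 received a weight of 0.184 and 5 genes passed with all 6 libraries: C130026I21Rik, Cma1 and Tpsb2, higher in aged, and Als2cl and Dapl1, lower.

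**Figure D2:**
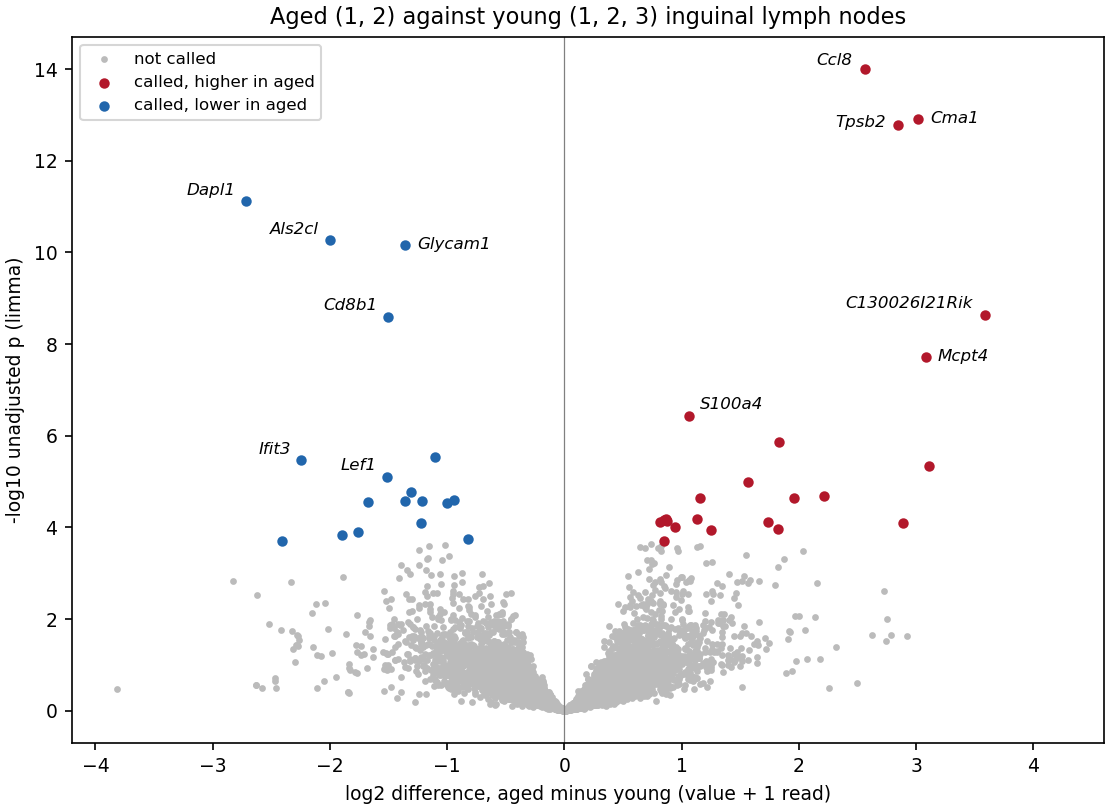
Log2 difference, aged (mice 1 and 2) minus young (mice 1, 2 and 3), on the horizontal axis against -log10 of limma's unadjusted p on the vertical axis, 1 point per gene tested. The 23 genes called higher in aged and the 18 called lower are coloured, and 12 are named; Ccl8 and the mast cell proteases Cma1 and Tpsb2 have the smallest p.

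The transcripts of 4 mast cell proteases were higher in aged mice 1 and 2. Mast cells store these proteases in granules with histamine and heparin. Cma1, a chymase encoded on chromosome 14, was 132, 89.7 and 16.8 in aged mice, against 9.87, 8.95 and 20.6 in young mice. Aged mice 1 and 2 lay above all young mice, and aged mouse 3 lay within the young range. The difference without aged mouse 3 was 3.02 ± 0.33 (SE) on the log2 scale (limma adjusted p = 5.19e-10), and 2.14 with it. Mcpt4, the chymase of connective tissue mast cells, was 139, 85.4 and 8.11 in aged mice, against 13.7, 5.29 and 21.0 in young mice (3.08 ± 0.39 on the log2 scale, limma adjusted p = 2.06e-05; 1.89 with aged mouse 3). Tpsb2, a tryptase encoded on chromosome 17, was 132, 83.5 and 15.1 in aged mice, against 10.6, 11.4 and 19.9 in young mice (2.85 ± 0.32, limma adjusted p = 5.19e-10; 1.95 with aged mouse 3). Cpa3, the carboxypeptidase that is stored beside them, was 50.6, 40.8 and 5.04 in aged mice, against 7.59, 0.814 and 11.9 in young mice (2.88 ± 0.58, limma adjusted p = 0.0234; 1.91 with aged mouse 3). The call of Cpa3 was lost without aged mouse 1, aged mouse 2 or young mouse 1, and that of Mcpt4 without young mouse 1. Cma1 and Tpsb2 were called in each of the 5 fits that left out 1 more library.

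Of 11 genes on the mast cell list, 7 reached the filter, and 4 of them, the proteases, were called. The other 3, Fcer1a, Hdc and Gata2, reached it through the aged libraries alone, so their sign is no observation, and none passed. Fcer1a, the IgE-binding receptor chain, was 11.9, 8.15 and 0 in aged mice, against 0, 0 and 1.33 in young mice. Hdc, the enzyme that makes histamine, was 11.9, 9.17 and 8.39 in aged mice, against 0, 0 and 2.66 in young mice. Gata2, a transcription factor of mast cells and progenitors, was 8.92, 12.2 and 10.1 in aged mice, against 1.52, 5.70 and 1.33 in young mice. Their differences were 2.74 (limma adjusted p = 0.502), 2.62 (limma adjusted p = 0.461) and 1.65 (limma adjusted p = 0.535) on the log2 scale; with aged mouse 3, Hdc differed by 2.47 and Gata2 by 1.61, and Fcer1a did not reach the filter. Kit, the receptor for stem cell factor, which other cells also carry, was under the filter at 5.95, 3.06 and 20.1 in aged mice, against 1.52, 7.33 and 2.66 in young mice. With no filter, all 11 members had a positive difference, with a median of 2.62; Ms4a2, a chain of the IgE receptor, was listed at 0 in every young library. The whole list made up 0.118%, 0.0824% and 0.0166% of the signal in aged mice, against 0.0103%, 0.00889% and 0.0201% in young mice. In bulk tissue a larger number of cells of a type and more RNA per cell cannot be told apart, here and in every result below.

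Ccl8, a chemokine made by macrophages and stromal cells, had the smallest p of all genes. It was 149, 181 and 6.71 in aged mice, against 37.9, 18.7 and 26.6 in young mice. Both aged mice 1 and 2 exceeded every young mouse, while aged mouse 3 was under all of them. The difference was 2.56 ± 0.27 (SE) on the log2 scale without aged mouse 3 (limma adjusted p = 9.42e-11) and 1.11 with it. Genes of macrophages and other myeloid cells were also among the called genes. Cd5l, which tissue macrophages secrete, was 222, 119 and 63.8 in aged mice, against 31.9, 30.9 and 69.1 in young mice (1.96 ± 0.33, limma adjusted p = 0.0107; 1.51 with aged mouse 3). Spleen macrophages transcribe it too. A list of 8 spleen genes that includes it made up 0.0751%, 0.0498% and 0.0163% of the signal in aged mice, against 0.0192%, 0.0707% and 0.0358% in young mice. Cd5l itself supplied 222, 119 and 63.8 of list sums of 320, 209 and 82.2 in aged mice. In young mice it supplied 31.9, 30.9 and 69.1 of 83.5, 314 and 150. The sum thus rises with Cd5l and cannot gauge spleen cells, whose part was not tested. Slamf9, a receptor of the SLAM family, was 59.5, 49.9 and 13.4 in aged mice, against 24.3, 11.4 and 10.6 in young mice (1.83 ± 0.35, limma adjusted p = 0.00121; 1.18 with aged mouse 3). Marco, a scavenger receptor of medullary macrophages and of sinus endothelium, was 620.2, 474 and 47.0 in aged mice, against 298, 237 and 413 in young mice (0.81 ± 0.19, limma adjusted p = 0.0234; -0.35 with aged mouse 3). With aged mouse 3 the difference of Marco was -0.35, the opposite sign, as that library held 47.0.

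Lgmn, a lysosomal protease, was 192, 171 and 85.6 in aged mice, against 94.1, 114 and 87.7 in young mice (0.88 ± 0.21, limma adjusted p = 0.0234; 0.52 with aged mouse 3). Wfdc17, a small secreted protein of myeloid cells, was 16.4, 65.2 and 87.3 in aged mice, against 9.11, 8.14 and 7.97 in young mice (1.82 ± 0.44, limma adjusted p = 0.0303; 2.27 with aged mouse 3). All 3 aged mice exceeded all young mice in Wfdc17, and aged mouse 1 was the nearest to them. Of the 20 genes on the macrophage list, 15 were tested, 1 was called (Marco), 11 had a positive difference, and the median was 0.28 without aged mouse 3 and -0.34 with it. C1qa, a chain of the first complement component, was 742, 658 and 282 in aged mice, against 379, 450.1 and 522 in young mice, higher in aged mice 1 and 2 without passing (0.64 ± 0.17, limma adjusted p = 0.053; 0.21 with aged mouse 3). Lyz2, the lysozyme of myeloid cells, was 1081, 1228 and 862 in aged mice, against 1537, 1461 and 1768 in young mice, and all aged values lay under all young values without passing (-0.46 ± 0.15, limma adjusted p = 0.188; -0.60 with aged mouse 3). Mrc1, the mannose receptor, was 29.7, 45.9 and 8.39 in aged mice, against 22.8, 35.8 and 35.9 in young mice, with overlapping groups; it was chosen after its values were seen.

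Several genes of naive and CD8 T cells were lower in the aged mice. Dapl1, a gene transcribed in naive T cells, was 5.95, 9.17 and 0 in aged mice, against 71.3, 48.8 and 50.5 in young mice. Every aged library was under every young library, and aged mouse 3 was listed at 0. The difference was -2.71 ± 0.34 on the log2 scale without aged mouse 3 (limma adjusted p = 1.81e-08) and -3.59 with it. Lef1, a transcription factor of naive T cells and of developing lymphocytes, was 13.4, 17.3 and 0 in aged mice, against 47.2, 51.4 and 39.9 in young mice (-1.51 ± 0.32, limma adjusted p = 0.00494; -2.70 with aged mouse 3). Dgka, a kinase that dampens diacylglycerol signalling downstream of the T cell receptor, was 52.0, 66.2 and 31.9 in aged mice, against 119.9, 107 and 132 in young mice (-1.01 ± 0.23, limma adjusted p = 0.0114; -1.29 with aged mouse 3). Ccr9, a homing receptor for the gut that recent thymic emigrants also carry, was 7.44, 7.13 and 1.68 in aged mice, against 18.2, 24.4 and 22.6 in young mice, lower in all aged mice without passing (-1.41 ± 0.42, limma adjusted p = 0.136; -1.90 with aged mouse 3).

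Of the 16 genes on the naive T cell list, all were tested, 15 had a negative difference, 3 were called lower and none higher, and the median was -0.48 without aged mouse 3 and -1.38 with it. Of these, 3 (Bach2, Dapl1 and Txk) reached the filter only with the help of young libraries, and the other 13 had 12 negative differences. Ccr7, the receptor for Ccl19 and Ccl21, was 159, 173 and 18.5 in aged mice, against 197, 138 and 194 in young mice, and differed by -0.07 ± 0.20 (SE) without aged mouse 3 (limma adjusted p = 0.962) and by -1.09 with it.

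Cd8b1, the beta chain of the CD8 co-receptor, was 49.1, 54.0 and 3.36 in aged mice, against 182, 138 and 130.2 in young mice. The 2 aged libraries lay close together and under every young library. The difference was -1.51 ± 0.22 (limma adjusted p = 2.99e-06) and -2.66 with aged mouse 3. Cd8a, the alpha chain, was 26.8, 54.0 and 6.71 in aged mice, against 94.1, 68.4 and 75.7 in young mice, lower in all aged mice without passing (-1.02 ± 0.26, limma adjusted p = 0.053; -1.78 with aged mouse 3). Cd4, chosen after its values were seen, was 155, 145 and 10.1 in aged mice, against 143, 134 and 139.5 in young mice (0.11 ± 0.20, limma adjusted p = 0.915; -1.13 with aged mouse 3). The ratio of Cd8b1 to Cd4 within a library was 0.317, 0.373 and 0.333 in aged mice, against 1.28, 1.04 and 0.933 in young mice. This ratio is independent of the scaling of a library, and it was also chosen after the values were seen, so it is given with no test; in aged mouse 3 it rests on 2 reads of Cd8b1 and 6 reads of Cd4. The ratio of Cd8a to Cd4 was 0.173, 0.373 and 0.667 in aged mice, against 0.66, 0.512 and 0.543 in young mice. It was lower in aged mice 1 and 2 than in all young mice, while aged mouse 3, at 4 reads of Cd8a, was above them all. Lef1 stood to Cd4 at 0.0865, 0.12 and 0 in aged mice, against 0.331, 0.385 and 0.286 in young mice.

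Cd3d, a signalling chain of the T cell receptor complex, was 65.4, 70.3 and 3.36 in aged mice, against 188, 132 and 129 in young mice (-1.10 ± 0.22, limma adjusted p = 0.00237; -2.39 with aged mouse 3). Cd27, a co-stimulatory receptor of naive and memory T cells, was 31.2, 25.5 and 3.36 in aged mice, against 83.5, 62.0 and 58.4 in young mice (-1.21 ± 0.27, limma adjusted p = 0.011; -2.09 with aged mouse 3). Cd3e, another chain of the complex, was 123, 68.3 and 10.1 in aged mice, against 91.9, 112 and 121 in young mice, with overlapping groups (-0.23 ± 0.23, limma adjusted p = 0.822; -1.23 with aged mouse 3). Of the 20 T cell identity genes, 18 had a negative difference and the median was -0.57. Of the 20, 3 were called lower (Cd3d, Cd8b1 and Cd27), beside 0.188% over all genes tested. With aged mouse 3 all 20 were negative and the median was -1.53. Themis and Trat1 reached the filter only with the help of young libraries. The other 18 had 16 negative differences and a median of -0.57, and with no filter 18 of the 20 were negative. The called genes of the naive and CD8 groups other than Dapl1 and Cd8b1 lost their call in 3 or 4 of the 5 fits that left out 1 more library: Lef1 without aged mouse 1, young mouse 1 or young mouse 2, Cd3d and Cd27 without aged mouse 1, aged mouse 2 or young mouse 1, and Dgka in every one but that without young mouse 2.

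Genes of memory and effector T cells moved in both directions. S100a4, a calcium-binding protein of memory T cells and many other motile cells, was 402, 305 and 60.4 in aged mice, against 188, 146 and 167 in young mice (1.06 ± 0.19, limma adjusted p = 0.000346; 0.23 with aged mouse 3). S100a6, of the same family, was 275, 242 and 520.3 in aged mice, against 194, 118 and 122 in young mice (0.86 ± 0.20, limma adjusted p = 0.0232; 1.20 with aged mouse 3). Fat and stromal cells also transcribe S100a6, and aged mouse 3 was the highest library. Klrd1, the CD94 chain of receptors on natural killer and CD8 T cells, was 7.44, 11.2 and 1.68 in aged mice, against 31.9, 26.9 and 38.5 in young mice (-1.67 ± 0.38, limma adjusted p = 0.0112; -2.26 with aged mouse 3). Ccl5, a chemokine of effector and memory CD8 T cells, was 429.8, 516 and 55.4 in aged mice, against 352, 278 and 256 in young mice, higher in aged mice 1 and 2 without passing (0.68 ± 0.18, limma adjusted p = 0.053; -0.34 with aged mouse 3). Of 22 genes on the list, 17 were tested, 14 had a positive difference, 2 were called higher and 1 lower, and the median was 0.68; with aged mouse 3, 15 were tested, 5 were positive and the median was -0.34. Of the 17, 3 reached the filter only with the help of aged libraries and 1 with that of young libraries; the other 13 had 11 positive differences and a median of 0.44.

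Cxcr6, a homing receptor of tissue memory T cells, and its ligand Cxcl16, a chemokine of macrophages and dendritic cells, were both higher in aged mice 1 and 2. Cxcr6 was 81.8, 73.4 and 5.04 in aged mice, against 39.5, 31.7 and 33.2 in young mice (1.13 ± 0.27, limma adjusted p = 0.0232; -0.08 with aged mouse 3). Cxcl16 was 128, 77.4 and 25.2 in aged mice, against 54.6, 37.4 and 41.2 in young mice (1.16 ± 0.26, limma adjusted p = 0.0107; 0.52 with aged mouse 3). The call of Cxcr6 was lost in each of the 5 fits that left out 1 more library, and that of Cxcl16 without aged mouse 1, young mouse 2 or young mouse 3. Tnfrsf1b, the second receptor for tumour necrosis factor, present on regulatory T cells and myeloid cells, was 61.0, 55.0 and 3.36 in aged mice, against 16.7, 23.6 and 33.2 in young mice (1.25 ± 0.31, limma adjusted p = 0.0303; 0.03 with aged mouse 3). Ccr2, the monocyte and memory T cell receptor for Ccl2, was 65.4, 55.3 and 16.8 in aged mice, against 36.4, 26.1 and 19.9 in young mice (1.13 ± 0.30, limma adjusted p = 0.053; 0.55 with aged mouse 3) and did not pass. Of 20 tested genes for lymphoid cytokine and homing receptors, 1 was called (Cxcr6), and the median was 0.17 without aged mouse 3 and -0.64 with it. Among 12 tested genes of regulatory and follicular helper T cells none was called with limma (4 with an unadjusted p under 0.05); the inhibitory receptor Pdcd1 was 13.4, 19.4 and 0 in aged mice, against 10.6, 4.07 and 3.98 in young mice, with a difference of 1.32 ± 0.51 without aged mouse 3 (limma adjusted p = 0.395) and 0.09 with it. It reached the filter only with the help of aged libraries. Ctla4 was 13.4, 18.3 and 0 in aged mice, against 4.55, 9.77 and 6.64 in young mice (1.08 ± 0.49, limma adjusted p = 0.502; -0.13 with aged mouse 3). Tnfrsf18, another member, went the other way. It was 20.8, 22.4 and 5.04 in aged mice, against 47.05, 28.5 and 35.9 in young mice (-0.72 ± 0.32, limma adjusted p = 0.483; -1.33 with aged mouse 3). Of the 12 tested, 7 had a positive and 5 a negative difference, with a median of 0.09 (-0.37 with aged mouse 3). The 8 that did not need 1 age group to reach the filter had 6 positive differences.

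B cell identity genes did not pass in either direction. Of 18 tested B cell identity genes, 12 had a positive difference, none was called with limma (2 had an unadjusted p under 0.05), and the median was 0.13 without aged mouse 3 and -0.70 with it. Cd72, a co-receptor of B cells, was 181, 205 and 6.71 in aged mice, against 94.1, 98.5 and 145 in young mice (0.80 ± 0.21, limma adjusted p = 0.053; -0.73 with aged mouse 3). Blnk, an adaptor of the B cell receptor, was 98.2, 108 and 23.5 in aged mice, against 45.5, 71.6 and 74.4 in young mice (0.71 ± 0.24, limma adjusted p = 0.231; 0.02 with aged mouse 3). Both were higher in aged mice 1 and 2 than in all young mice without passing.

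Plasma cell genes had positive differences, and none passed. Of 14 genes, 12 were tested, and 5 of these had an unadjusted p under 0.05 with limma, beside 8.59% over all genes tested. In 7 of the 12 both aged libraries were higher than all young ones, beside 12.9% over all genes tested. Both counts cover all 12, however they reached the filter. The median was 1.00, beside 0.01 over all genes. With aged mouse 3, all 11 tested were positive with a median of 0.38. Derl3 and Tnfrsf17 reached the filter only with the help of aged libraries; the other 10 tested had a median of 0.88, and with no filter all 14 members were positive. Jchain, the joining chain of secreted IgA and IgM, was 153, 296 and 11.8 in aged mice, against 27.3, 163 and 39.9 in young mice, and young mouse 2 overlapped the aged mice (1.89 ± 1.01, limma adjusted p = 0.72; 0.54 with aged mouse 3). Irf4, a transcription factor of plasma cells and activated lymphocytes, was 41.6, 53.0 and 10.1 in aged mice, against 13.7, 29.3 and 25.2 in young mice (1.07 ± 0.32, limma adjusted p = 0.144; 0.37 with aged mouse 3). Txndc5, a disulphide isomerase of the secretory pathway, was 124, 132 and 77.8 in aged mice, against 64.3, 94.5 and 87.7 in young mice (0.65 ± 0.22, limma adjusted p = 0.245; 0.41 with aged mouse 3). Immunoglobulin constant region genes were not analysed here.

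Atf6, the membrane sensor of unfolded protein in the endoplasmic reticulum, was 35.7, 34.6 and 25.2 in aged mice, against 6.07, 17.9 and 7.97 in young mice (1.73 ± 0.41, limma adjusted p = 0.0234; 1.57 with aged mouse 3). All 3 aged mice exceeded all young mice. It was the only called gene of 20 chaperones and stress factors of the endoplasmic reticulum, of which 17 had a positive difference with a median of 0.28; with aged mouse 3, 13 were positive and the median was 0.07. Hsp90b1, the chaperone that folds immunoglobulins and integrins, was 847, 902 and 416 in aged mice, against 594, 688 and 524 in young mice (0.55 ± 0.16, limma adjusted p = 0.129; 0.19 with aged mouse 3).

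Glycam1, a secreted ligand for rolling lymphocytes made by high endothelial venules, was lower in aged mice 1 and 2. It was 1416, 1111 and 6.71 in aged mice, against 4072, 2544 and 3222 in young mice. The young values lay above both aged mice 1 and 2, and aged mouse 3 was almost without the transcript. The difference was -1.36 ± 0.15 (limma adjusted p = 1.09e-07), and -3.78 with aged mouse 3. Of the 17 genes of these venules, 11 were tested, Glycam1 was the 1 called, 6 had a positive and 5 a negative difference, and the median was 0.03 without aged mouse 3 and -0.23 with it. Ackr1, the chemokine-binding receptor of venules, was 8.92, 12.2 and 6.71 in aged mice, against 9.11, 4.07 and 5.31 in young mice (0.71 ± 0.55, limma adjusted p = 0.759; 0.52 with aged mouse 3). Madcam1, a ligand of homing integrins, was 5.95, 7.13 and 0 in aged mice, against 7.59, 9.77 and 15.9 in young mice (-0.61 ± 0.51, limma adjusted p = 0.77; -1.43 with aged mouse 3). Ackr1 reached the filter only with the help of aged libraries, and Madcam1 only with that of young libraries.

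Among stromal chemokines, Cxcl12, which retains lymphocytes and plasma cells in tissue, was 190.4, 232 and 45.3 in aged mice, against 117, 107 and 125 in young mice (0.85 ± 0.20, limma adjusted p = 0.0234; 0.12 with aged mouse 3). Its call was lost in each of the 5 fits that left out 1 more library. Ccl19, the T cell zone chemokine, was 104, 92.7 and 2.18 in aged mice, against 69.7, 44.3 and 54.9 in young mice (0.81 ± 0.24, limma adjusted p = 0.14; -0.79 with aged mouse 3). Ccl21a, the other ligand of Ccr7, whose reads cannot be told apart from those of the identical copy Gm1987, was 286, 258 and 4.2 in aged mice, against 374, 264 and 391 in young mice (-0.31 ± 0.18, limma adjusted p = 0.665; -2.18 with aged mouse 3). Cxcl13, the chemokine of follicles, was 138, 209.9 and 8.39 in aged mice, against 205, 124 and 171 in young mice (0.06 ± 0.21, limma adjusted p = 0.968; -1.32 with aged mouse 3). Ccl19 was higher in aged mice 1 and 2 than in all young mice, and the values of Ccl21a and Cxcl13 overlapped. Il7, the survival factor for naive T cells, was 2.97, 3.06 and 3.36 in aged mice, against 13.7, 7.33 and 9.30 in young mice, at 2 to 9 reads per library, lower in all aged mice without passing (-1.36 ± 0.61, limma adjusted p = 0.502; -1.31 with aged mouse 3). Il7 reached the filter through the young libraries alone, so its sign is no observation. Of 23 tested stromal genes, 12 had a positive and 11 a negative difference, with a median of 0.06 without aged mouse 3 and -0.67 with it.

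Lymphatic endothelial genes had a median of 0.25 over 12 tested without aged mouse 3 and -0.07 with it, of which Marco was the 1 called. Flt4, the receptor for the lymphatic growth factor Vegfc, was 34.2, 26.5 and 5.04 in aged mice, against 6.07, 11.4 and 11.9 in young mice (1.55 ± 0.42, limma adjusted p = 0.0691; 0.77 with aged mouse 3). Mmrn1, a marker of lymphatic vessels, was 25.3, 19.4 and 0 in aged mice, against 6.07, 5.70 and 9.30 in young mice (1.52 ± 0.46, limma adjusted p = 0.144; 0.15 with aged mouse 3). Both were higher in aged mice 1 and 2 than in all young mice without passing. Mmrn1 reached the filter only with the help of aged libraries. Inflammatory chemokines and cytokines had 2 called genes among 17 tested, Ccl8 and Cxcl16, with a median of 0.53 without aged mouse 3 and -0.46 with it. Dendritic cell genes had none called among 13 with limma (3 with an unadjusted p under 0.05) and a median of -0.03 without aged mouse 3 and -0.45 with it. Apol7c, an apolipoprotein L gene transcribed in dendritic cells, was 199, 132 and 2.52 in aged mice, against 83.5, 103 and 83.0 in young mice (0.85 ± 0.22, limma adjusted p = 0.0469; -0.94 with aged mouse 3).

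The study concerned the type I interferon response of the ageing choroid plexus, and the genes of that response were examined in these nodes. Type I interferon acts through transcription factors that bind the interferon-stimulated response element in the promoters of antiviral genes. Ifit3, an antiviral protein that binds Ifit1, was the single gene called of 36 tested, and it was lower in aged. The 2 promoters below are those of Ifit3 and of Samd9l, which had the next smallest p, from 250 bases before to 50 after the gene start; they are RefSeq sequences in build GRCm38.p6, which is not the build of the deposited values. Capitals mark matches to the element GAAANNGAAA on either strand.
Ifit3, chr19:34583279-34583578, plus strand: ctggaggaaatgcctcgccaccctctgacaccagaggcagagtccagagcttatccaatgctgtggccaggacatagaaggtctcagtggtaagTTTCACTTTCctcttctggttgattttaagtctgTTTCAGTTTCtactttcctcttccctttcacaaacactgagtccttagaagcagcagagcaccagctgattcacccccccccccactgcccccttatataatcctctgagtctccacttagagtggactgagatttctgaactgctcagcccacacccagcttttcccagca
Samd9l, chr6:3399522-3399821, minus strand: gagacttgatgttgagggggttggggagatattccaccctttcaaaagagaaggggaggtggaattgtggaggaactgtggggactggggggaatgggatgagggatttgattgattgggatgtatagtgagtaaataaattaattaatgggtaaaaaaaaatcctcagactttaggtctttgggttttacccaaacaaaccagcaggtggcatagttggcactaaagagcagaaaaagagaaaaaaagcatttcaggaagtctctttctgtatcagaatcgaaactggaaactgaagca

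In the Ifit3 window the 2 matches, TTTCACTTTC and TTTCAGTTTC, are on the reverse strand and begin at positions -156 and -122 from the gene start. The Samd9l window holds none. Over 32851 RefSeq promoters of this length, 3.44% hold the element, and it was in 14 of the 23 tested interferon genes with a promoter in the table (60.9%). A match describes the sequence and is not a measured binding site.

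Ifit3 was 2.97, 9.68 and 5.04 in aged mice, against 46.3, 37.9 and 17.3 in young mice. All aged libraries, aged mouse 3 included, lay under all young libraries. The difference was -2.24 ± 0.43 without aged mouse 3 (limma adjusted p = 0.00253) and -2.27 with it. The call was lost without aged mouse 1 or young mouse 1, in a fit on read weights (voom) and with no filter. Ifit3 reached the filter only with the help of young libraries. Its near-identical neighbour Ifit3b, with which it may share reads, was 1.49, 1.53 and 11.8 in aged mice, against 8.35, 11.0 and 11.9 in young mice (-2.04 ± 0.69, limma adjusted p = 0.24; -1.28 with aged mouse 3). Ifit3b too reached the filter only through young libraries. Samd9l, an antiviral and growth-restraining protein, was 19.3, 34.6 and 18.5 in aged mice, against 47.0, 63.5 and 55.8 in young mice (-1.05 ± 0.29, limma adjusted p = 0.079; -1.20 with aged mouse 3). Oas2, a synthetase activated by double-stranded RNA, was 4.46, 12.2 and 16.8 in aged mice, against 22.8, 20.4 and 18.6 in young mice (-1.30 ± 0.43, limma adjusted p = 0.214; -0.95 with aged mouse 3). Rtp4, an inhibitor of viral replication, was 13.4, 15.3 and 11.8 in aged mice, against 18.2, 40.7 and 33.2 in young mice (-0.96 ± 0.36, limma adjusted p = 0.364; -1.05 with aged mouse 3). Groups did not overlap for any of these 3, and none passed.

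Isg15, a ubiquitin-like modifier, was 19.3, 15.3 and 16.8 in aged mice, against 27.3, 37.4 and 21.2 in young mice (-0.66 ± 0.35, limma adjusted p = 0.617; -0.67 with aged mouse 3). Irf7, which amplifies interferon transcription, was 46.1, 39.7 and 33.6 in aged mice, against 57.7, 63.5 and 47.8 in young mice (-0.38 ± 0.26, limma adjusted p = 0.733; -0.49 with aged mouse 3). In both genes all 3 aged mice were under all young mice without passing. Ifit1, at 3 to 12 reads per library, was 4.46, 6.11 and 15.1 in aged mice, against 10.6, 9.77 and 6.64 in young mice (-0.63 ± 0.56, limma adjusted p = 0.787; -0.19 with aged mouse 3). Of the 36 tested genes, 30 had a negative and 6 a positive difference, with a median of -0.44, beside 0.01 over all genes. Both aged libraries were under all young libraries in 18 of the 36 and above them in 0, beside 12.1% and 12.9% over all genes tested. The 18 include members that the filter let in only with the help of young libraries. Of the 36, 9 reached the filter only with the help of young libraries, Ifit3, Oas2 and Ifit1 among them; the other 27 had 22 negative differences and a median of -0.35, and with no filter 34 of 40 members were negative. With aged mouse 3, 33 were tested, 30 were negative and the median was -0.60, beside -0.03 over all genes. The list made up 0.485%, 0.505% and 0.806% of the signal in aged mice, against 0.602%, 0.661% and 0.618% in young mice.

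Genes of the interferon gamma response had no called gene among 23 with limma (3 with an unadjusted p under 0.05), with 14 positive and 9 negative differences and a median of 0.06; with aged mouse 3, 19 of 22 were negative and the median was -0.38. Cxcl9, a chemokine induced by interferon gamma, was 22.3, 30.6 and 18.5 in aged mice, against 59.2, 44.0 and 34.5 in young mice, lower in all aged mice without passing (-0.75 ± 0.30, limma adjusted p = 0.404; -0.90 with aged mouse 3). Socs1, an inhibitor of cytokine signalling, was 77.3, 58.4 and 8.39 in aged mice, against 51.6, 35.0 and 41.8 in young mice (0.65 ± 0.27, limma adjusted p = 0.42; -0.28 with aged mouse 3). MHC class I presentation genes had 15 positive differences of 17, none called with limma (2 with an unadjusted p under 0.05) and a median of 0.22. With aged mouse 3 the direction was the other, with 13 of 17 negative and a median of -0.26. H2-K1, a class I heavy chain, was 2313, 2317 and 1056 in aged mice, against 1852, 1966 and 2127 in young mice (0.23 ± 0.14, limma adjusted p = 0.675; -0.15 with aged mouse 3). The 11 MHC class II genes had a median of 0.06 and none called with limma (0 with an unadjusted p under 0.05), and with aged mouse 3 all 11 were negative with a median of -0.69. Cd74 was 4316, 3544 and 1015 in aged mice, against 3503, 3568 and 3759 in young mice (0.12 ± 0.13, limma adjusted p = 0.844; -0.53 with aged mouse 3).

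The gene with the largest positive difference was C130026I21Rik, on chromosome 1 in a group of near copies of Sp100, Sp110 and Sp140. It was 41.1, 39.9 and 42.5 in aged mice, against 3.15, 0.814 and 3.10 in young mice. Aged mouse 3 was as high as the other aged mice. The gene reached the filter through the aged libraries alone, and it was also called with no filter. The difference was 3.58 ± 0.53 without aged mouse 3 (limma adjusted p = 2.99e-06) and 3.58 with it. Without aged mouse 1 or aged mouse 2 the call was lost. The neighbouring copies had other patterns: A530032D15Rik was 25.2, 14.2 and 0.979 in aged mice, against 8.10, 6.86 and 11.5 in young mice, and Sp110 was 58.1, 68.2 and 12.9 in aged mice, against 42.2, 60.4 and 67.9 in young mice, all chosen after their values were seen. How reads were divided among the copies is not given in the sources used here, so this gene's level is uncertain. Als2cl, related to a guanine nucleotide exchange factor for small GTPases, was 17.9, 30.6 and 40.3 in aged mice, against 117, 94.0 and 85.0 in young mice (-2.0 ± 0.26, limma adjusted p = 1.02e-07; -1.75 with aged mouse 3). Its groups did not overlap, with or without aged mouse 3.

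Other called genes belonged to no list. Mapk12, the p38 gamma kinase, was 34.2, 20.4 and 23.5 in aged mice, against 3.04, 4.88 and 6.64 in young mice (2.21 ± 0.49, limma adjusted p = 0.0107; 2.14 with aged mouse 3). Mapk12 reached the filter only with the help of aged libraries and lost its call with no filter. Tns2, a tensin of cell adhesions, was 77.3, 60.1 and 199.7 in aged mice, against 13.7, 20.4 and 38.5 in young mice (1.57 ± 0.32, limma adjusted p = 0.00601; 2.07 with aged mouse 3). Ppp1r9b, a scaffold for protein phosphatase, was 153, 112 and 126 in aged mice, against 56.2, 70.8 and 77.0 in young mice (0.95 ± 0.23, limma adjusted p = 0.028; 0.93 with aged mouse 3). In these 3 genes aged mouse 3 lay above all young mice too, so that the direction did not depend on leaving it out. Cd163l1, a scavenger receptor family member, was 86.3, 41.8 and 1.68 in aged mice, against 1.52, 8.14 and 11.9 in young mice (3.11 ± 0.52, limma adjusted p = 0.00309; 1.66 with aged mouse 3).

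Among the lower genes, Prss50, a serine protease gene, was 0, 5.09 and 1.68 in aged mice, against 12.1, 14.7 and 15.9 in young mice (-2.41 ± 0.61, limma adjusted p = 0.047; -2.35 with aged mouse 3). Tmie, known from the transduction channel of hair cells, was 5.95, 5.09 and 3.36 in aged mice, against 21.2, 20.4 and 23.9 in young mice (-1.76 ± 0.43, limma adjusted p = 0.0329; -1.92 with aged mouse 3). Both rest on fewer than 30 reads in every library. Pf4, the platelet chemokine, was 2.97, 6.11 and 45.3 in aged mice, against 21.2, 33.4 and 10.6 in young mice (-1.90 ± 0.47, limma adjusted p = 0.0377; -0.87 with aged mouse 3, which was the highest of the 6). Prss50, Tmie and Pf4 were under 6.64 in aged mice 1 and 2 and reached the filter only through young libraries. The filter thus favoured a lower value in them, and all lost their call with no filter, where 9 genes were called. Pced1b was 26.8, 14.0 and 4.2 in aged mice, against 42.5, 59.8 and 55.1 in young mice (-1.36 ± 0.30, limma adjusted p = 0.011; -1.99 with aged mouse 3). Traf3ip3, an adaptor of lymphocytes, was 19.3, 26.5 and 8.39 in aged mice, against 66.8, 57.0 and 51.8 in young mice (-1.31 ± 0.28, limma adjusted p = 0.00932; -1.74 with aged mouse 3). Atp1b3, a subunit of the sodium pump, was 98.2, 83.5 and 55.4 in aged mice, against 138, 179.9 and 169 in young mice (-0.82 ± 0.21, limma adjusted p = 0.0438; -1.05 with aged mouse 3). Ccdc116 was 16.9, 36 and 19.9 in aged mice, against 67.0, 64.5 and 48.5 in young mice (-1.22 ± 0.29, limma adjusted p = 0.0234; -1.32 with aged mouse 3). For Pced1b, Traf3ip3, Atp1b3 and Ccdc116 all 3 aged mice were under all young mice.

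**Figure D3:**
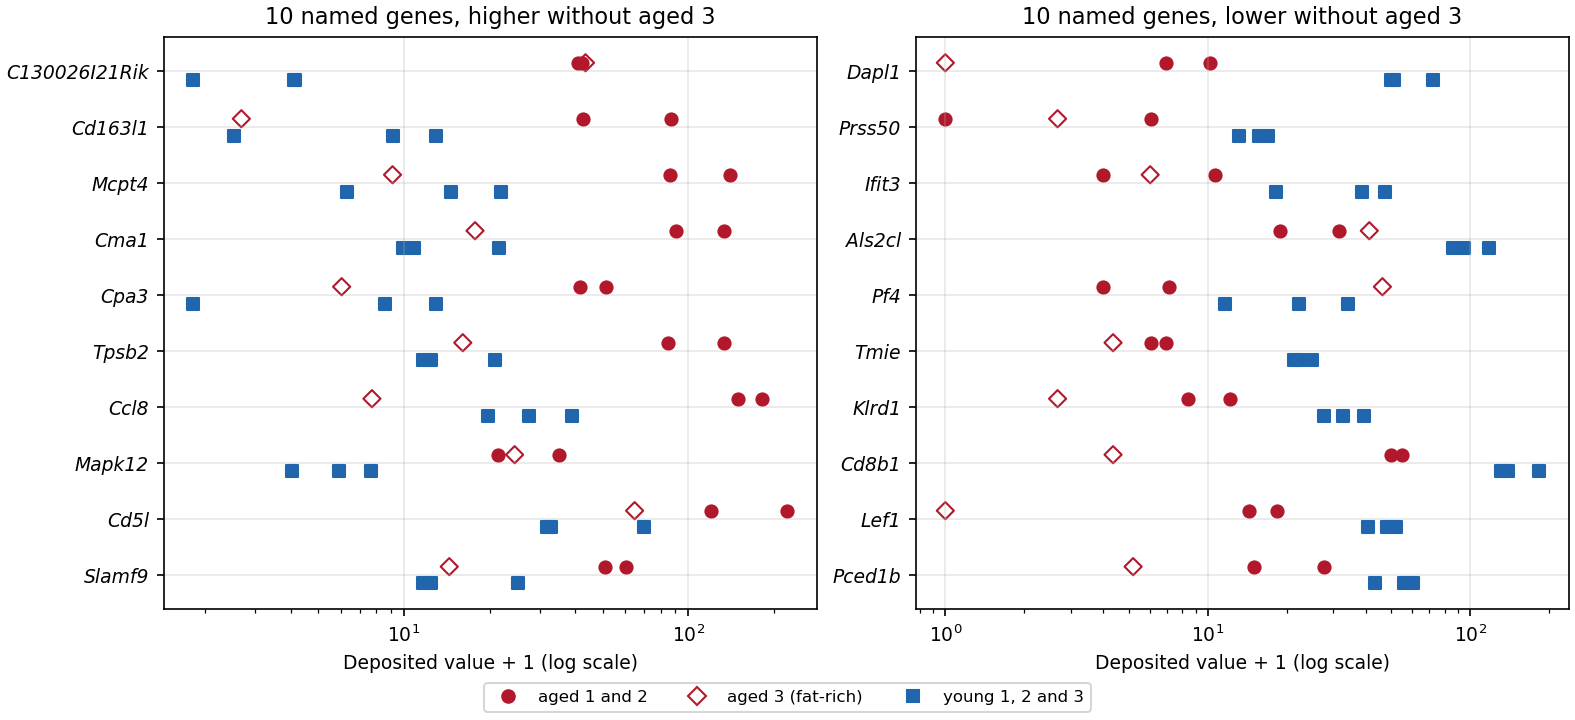
Deposited value plus 1 (horizontal axis, log scale) of the 10 higher (left) and 10 lower (right) genes with the largest differences among called genes without aged mouse 3; filled circles are aged mice 1 and 2, open diamonds aged mouse 3 and squares the 3 young mice. In Ccl8 and Cd163l1, among others, aged mouse 3 sits with or under the young mice, and in C130026I21Rik it sits at 42.5 with the aged mice.

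Sparc, a matrix protein of stroma and fat, was 137, 99.8 and 1592 in aged mice, against 241, 283 and 167 in young mice (-0.94 ± 0.21, limma adjusted p = 0.011; 0.31 with aged mouse 3). Among 23 tested collagen and matrix genes it was the single one called, with 13 negative differences and a median of -0.12; with aged mouse 3 the median was 0.39. Col1a1, a fibrillar collagen chain, was 31.4, 27.5 and 280.5 in aged mice, against 68.3, 43.1 and 49.1 in young mice (-0.81 ± 0.28, limma adjusted p = 0.259; 0.26 with aged mouse 3). The fat cell genes, which surround the node, had 17 negative differences of 26 tested, none called with limma (1 with an unadjusted p under 0.05), and a median of -0.51; with aged mouse 3, 25 of 26 were positive and the median was 1.21. Fat cell genes were 0.219% and 0.239% of the signal in aged mice 1 and 2, and 0.139% to 0.928% in young mice. The part of fat in the matrix results was not tested.

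Of 17 genes of the circadian clock, 8 reached the filter, and none passed with limma (4 with an unadjusted p under 0.05). With no filter 13 of the 17 had a positive and 4 a negative difference, with a median of 0.49, beside 49.0% positive over all genes in that fit. Among the 8, Clock itself reached the filter only with the help of aged libraries; the median of the 8 was 0.78 without aged mouse 3 and 0.97 with it. Nr1d1, the repressor Rev-erb alpha, was 32.7, 26.5 and 131 in aged mice, against 12.1, 10.6 and 13.3 in young mice (1.21 ± 0.39, limma adjusted p = 0.189; 1.91 with aged mouse 3). Nr1d2, its partner Rev-erb beta, was 40.2, 43.8 and 68.0 in aged mice, against 25.0, 17.1 and 19.3 in young mice (1.01 ± 0.33, limma adjusted p = 0.189; 1.23 with aged mouse 3). All aged libraries exceeded all young ones in both genes. Proliferation genes had a median of -0.02 over 20 tested (-0.51 with aged mouse 3, over 16) and none called with limma (0 with an unadjusted p under 0.05). Top2a, which untangles DNA in dividing cells, was 17.9, 19.4 and 3.36 in aged mice, against 27.3, 27.7 and 30.6 in young mice (-0.58 ± 0.34, limma adjusted p = 0.665; -1.27 with aged mouse 3).

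Complement genes had a median of 0.18 over 14 tested without aged mouse 3 and -0.01 with it, with none called by limma. Of the 14, 5 had an unadjusted p under 0.05 with limma, beside 8.59% over all genes tested. C4b, the fourth complement component, was 260.0, 296 and 414 in aged mice, against 162, 153 and 184 in young mice, and all 3 aged mice exceeded all young mice (0.74 ± 0.19, limma adjusted p = 0.0529; 0.93 with aged mouse 3). C4a, a near copy that may share its reads, was 75.6, 86.4 and 118 in aged mice, against 42.5, 43.3 and 45.8 in young mice (0.86 ± 0.25, limma adjusted p = 0.127; 1.04 with aged mouse 3). Neutrophil genes had a median of 0.52 over 8 tested (0.52 over 7 with aged mouse 3), with none called by limma. Of the 8, 4 had an unadjusted p under 0.05, beside the same 8.59%. Retnlg reached the filter only with the help of young libraries, and the other 7 had a median of 0.82. S100a9, a calcium-binding protein of neutrophils, was 71.4, 146 and 47.0 in aged mice, against 57.7, 82.2 and 34.5 in young mice (0.88 ± 0.35, limma adjusted p = 0.461; 0.52 with aged mouse 3). The 5 tested erythroid genes were negative without aged mouse 3, with a median of -2.46, and none was called with limma (0 with an unadjusted p under 0.05); with it all 5 were positive, with a median of 0.20. Hba-a1, a globin whose reads are shared with Hba-a2, was 20.1, 45.9 and 4598 in aged mice, against 27.3, 865 and 58.2 in young mice, so that young mouse 2 was far above the other young mice.

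With no filter, the median was 0.07 for inflammatory chemokines and cytokines, 0.22 for dendritic cell, 0.76 for neutrophil, 0.14 for lymphatic endothelial and 0.10 for venule genes. It was 0.09 for complement, -0.29 for collagen and matrix, -0.35 for fat cell and -1.84 for erythroid genes. The dendritic cell median thus had the opposite sign to that over tested members, and that of inflammatory genes was near 0.

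**Figure D4:**
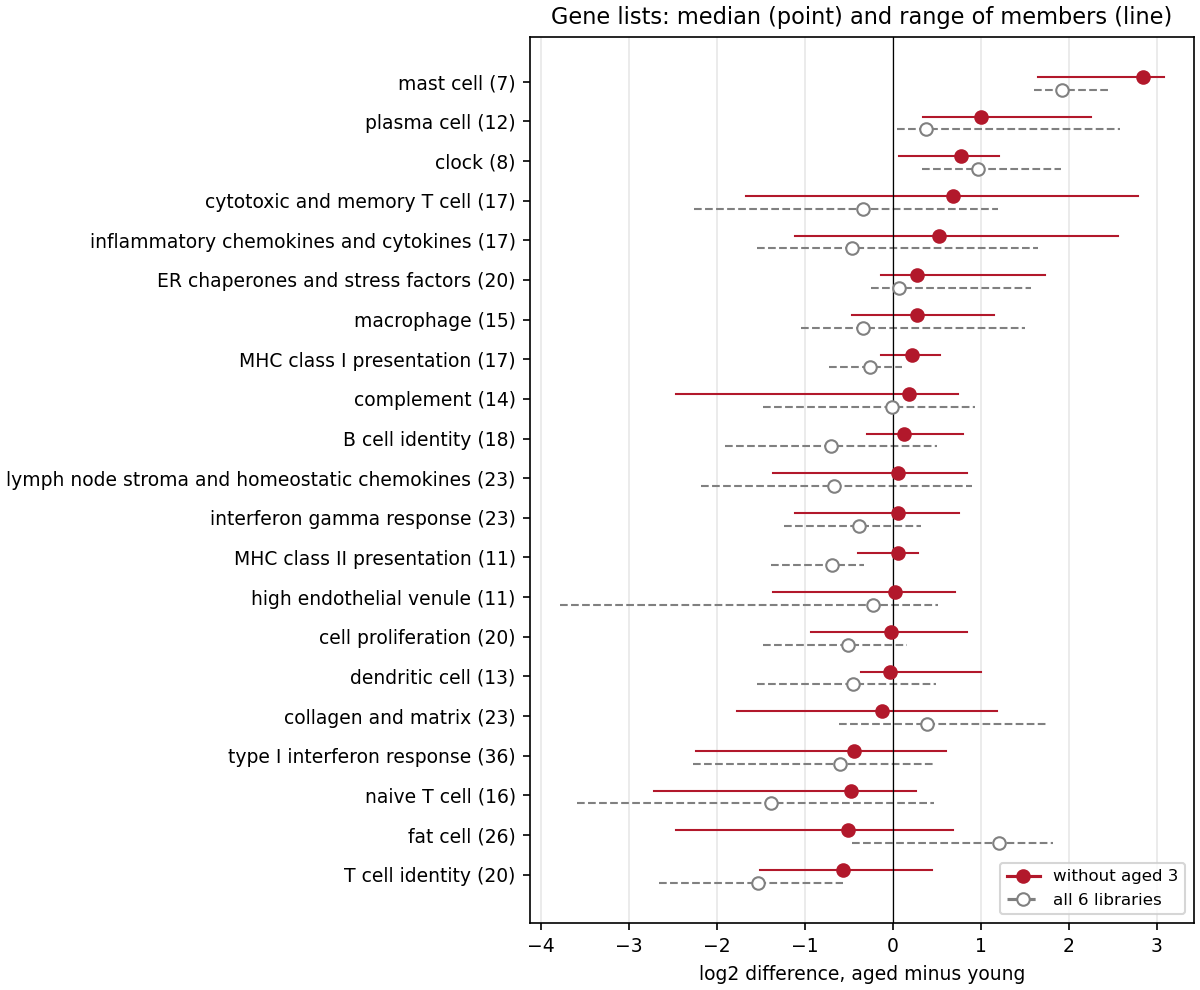
Log2 difference, aged minus young, of the tested members of 21 gene lists (number tested without aged mouse 3 in brackets): the point is the median and the line the lowest to highest member, without aged mouse 3 (filled, solid) and with all 6 libraries (open, dashed). The mast cell median is 2.85 and the T cell identity median -0.57 without aged mouse 3; the fat cell median is -0.51 without it and 1.21 with it.

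With all 6 libraries no gene passed, and the genes named for that comparison are those with the smallest p among genes whose groups did not overlap. Besides those described, the higher ones were Nrp1, a co-receptor for semaphorins and Vegfa, at 32.7, 28.5 and 60.4 in aged mice, against 7.59, 13.8 and 14.6 in young mice (1.62 on the log2 scale), Metrnl, a secreted factor of skin, fat and muscle, at 19.3, 13.2 and 13.4 in aged mice, against 4.55, 2.44 and 1.33 in young mice (2.06), Chst1, a sulphotransferase, at 53.5, 60.1 and 90.6 in aged mice, against 31.9, 25.2 and 18.6 in young mice (1.38), and Trip10, an adaptor of the actin cytoskeleton, at 68.4, 47.9 and 80.6 in aged mice, against 30.4, 26.9 and 29.2 in young mice (1.12). The lower one not yet described was Was, an actin regulator of blood cells, at 16.9, 17.8 and 8.39 in aged mice, against 33.4, 40.6 and 48.9 in young mice (-1.47). Limma's adjusted p was 0.83 or more for each. Groups that do not overlap were seen for 6.13% of the 8972 genes in the higher and 6.95% in the lower direction.

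The other lymph node sites of the same mice, cervical (3 aged and 2 young libraries) and mesenteric (3 of each), were set beside the inguinal nodes in a test of whether the age difference itself differed between sites. No gene passed: 0 of 11261 (0%) with limma, and 770 had an unadjusted p under 0.05 (6.84%). This fit of 17 libraries includes the inguinal library of aged mouse 3; without it, 0 of 11068 genes passed and 628 had an unadjusted p under 0.05. A difference between the sites was therefore not shown for any gene named here. Among the other sites, 2 young libraries stood apart. Hippocampus genes summed to 28.8 to 36 in aged cervical nodes, against 2230 in the cervical nodes of young mouse 2 and 21.6 in those of young mouse 3. Colon genes summed to 22.0 to 53.8 in aged mesenteric nodes, against 8832 in the mesenteric nodes of young mouse 2, 12.2 in those of young mouse 1 and 810.5 in those of young mouse 3. Without the 3 lymph node libraries of young mouse 2, 0 of 10750 genes passed and 356 had an unadjusted p under 0.05. The smallest p values in the negative direction belonged to Gm12250, an interferon-inducible GTPase gene, Samd9l, Ifit3b, Slc7a5, an amino acid transporter, and Trp53inp1, a stress response gene. Gm12250 was 5.95, 8.15 and 2.52 in aged mice, against 27.3, 16.4 and 17.3 in young mice in inguinal nodes, and at the other sites 16.6, 15 and 16.9 in aged cervical and 33.4, 25.7 and 7.04 in aged mesenteric nodes, against 4.15 and 5.69 in young cervical and 8.43, 6.85 and 8.78 in young mesenteric nodes. The difference between sites was -3.01 ± 0.54 (SE) on the log2 scale (limma adjusted p = 0.679) with the inguinal library of aged mouse 3 and -2.93 without it.

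Ifit3 was 17.2, 18.7 and 67.5 in aged cervical nodes, against 9.96 and 4.55 in young cervical nodes, so that its groups were in the opposite order to those of the inguinal nodes. In mesenteric nodes it was 28.0, 7.70 and 5.28 in aged mice, against 13.1, 9.49 and 18 in young mice, with overlap. The difference between sites was -3.06 ± 0.87 (limma adjusted p = 0.706), and -2.94 without the inguinal library of aged mouse 3. For Isg15 it was -2.06 ± 0.68 (limma adjusted p = 0.706), -1.79 without that library and -1.37 without young mouse 2. For Isg15, aged cervical nodes held 45.5, 22.4 and 152, against 9.96 and 23.3 in young cervical nodes. In the positive direction the smallest p values belonged to Camk2n1, Inppl1, Phka2, Hdac11 and Rcan3. Of these, Camk2n1, an inhibitor of a calcium-dependent kinase, was 5.95, 6.11 and 35.2 in aged mice, against 1.52, 4.07 and 1.33 in young mice in inguinal nodes, and 124.4 in the cervical nodes of young mouse 2 alone, the library with hippocampus genes, against 12.1 or less in every other lymph node library but the inguinal one of aged mouse 3.

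Several of the called genes had the same order at the other sites. C130026I21Rik was 47.0 to 60.9 in aged cervical and 58.4 to 127.8 in aged mesenteric nodes, against 0 to 0.277 in young cervical and 0.975 to 1.25 in young mesenteric nodes, and its aged libraries exceeded its young ones in 7 of the 10 other tissues. Als2cl was 29.9 to 33.7 in aged cervical and 28.9 to 41.1 in aged mesenteric nodes, against 81.3 to 102 in young cervical and 72.2 to 126 in young mesenteric nodes; its aged libraries were under its young ones in 5 of the 10 other tissues. Dapl1 was 2.22 to 6.42 in aged cervical and 4.70 to 12.8 in aged mesenteric nodes, against 56.4 to 83.1 in young cervical and 31.1 to 73.0 in young mesenteric nodes. Cd8b1 was 28.1 to 66.6 in aged cervical and 70.4 to 96.3 in aged mesenteric nodes, against 140 to 166 in young cervical and 121 to 178 in young mesenteric nodes. The same mice gave all sites, so these are not independent animals.

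The ratio of Cd8b1 to Cd4 was 0.174 to 0.395 in aged cervical and 0.619 to 1.12 in aged mesenteric nodes, against 1.14 and 1.18 in young cervical and 1.05 to 1.37 in young mesenteric nodes. The groups overlapped in mesenteric nodes and did not in the cervical or inguinal ones. Mast cell proteases were higher in aged cervical nodes as well, and scarce in mesenteric ones: Cma1 was 50.6 to 78.1 in aged cervical and 1.26 to 8.22 in aged mesenteric nodes, against 0.830 and 11.4 in young cervical and 0.264 to 3.90 in young mesenteric nodes. Ccl8 was 182 to 424 in aged cervical and 4.70 to 212 in aged mesenteric nodes, against 49.8 and 123 in young cervical and 0 to 9.36 in young mesenteric nodes. Glycam1 was 1367 to 2604 in aged cervical and 753 to 1700 in aged mesenteric nodes, against 2436 and 3589 in young cervical and 174 to 2262 in young mesenteric nodes, with overlap at both sites. The lowest young value at each site, 2436 and 174, was that of young mouse 2, whose cervical and mesenteric libraries held hippocampus and colon genes, as given above. The part of this in the Glycam1 values was not tested. Without young mouse 2, the young values, 3589 in cervical and 2087 and 2262 in mesenteric nodes, lay above all aged values of the same site.

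**Figure D5:**
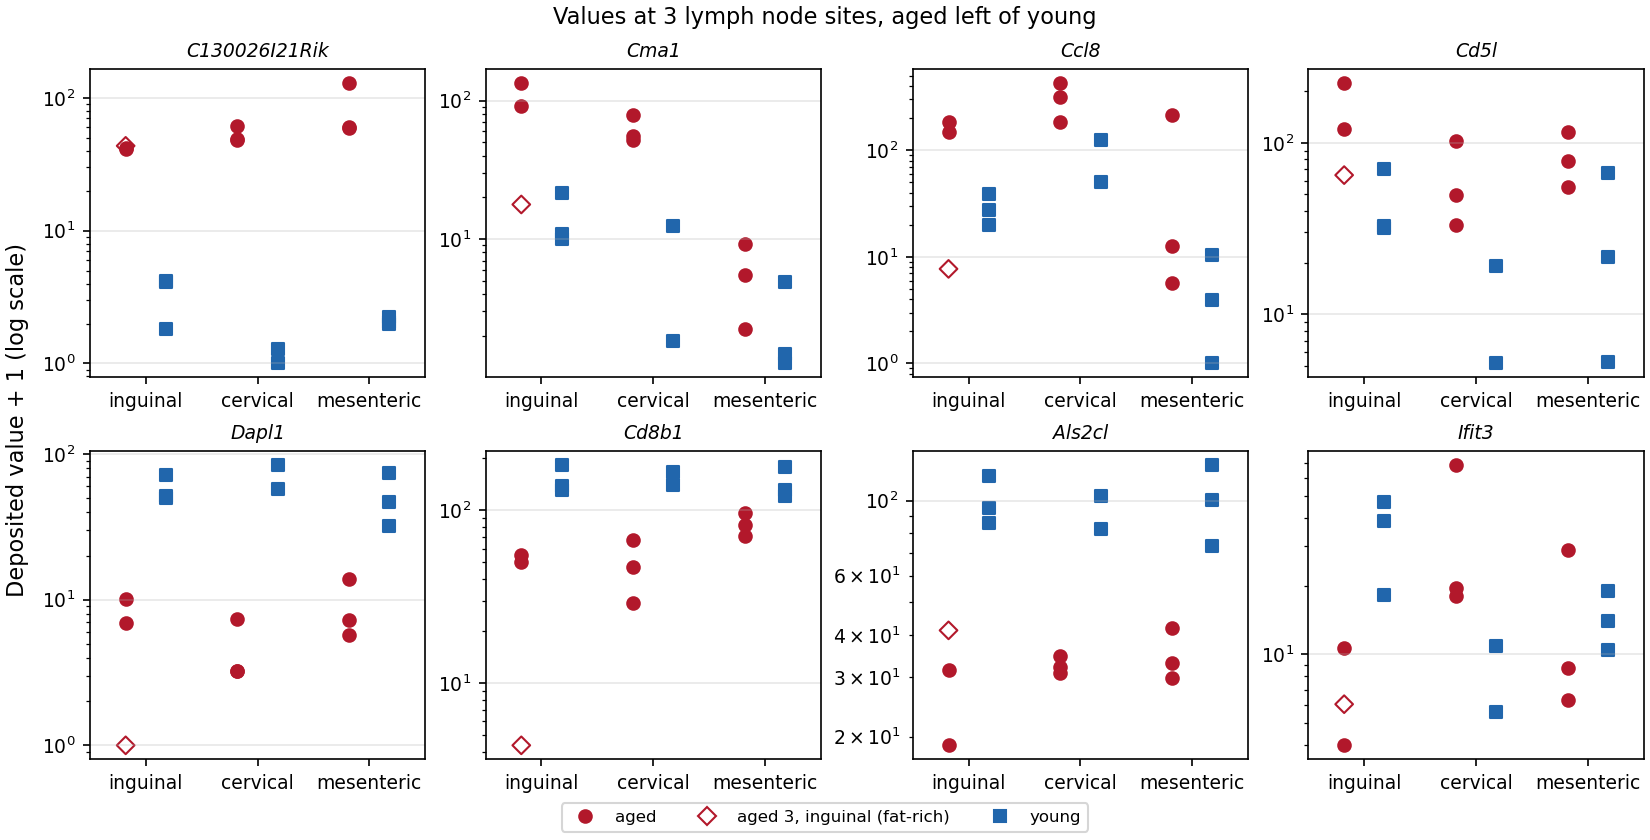
Deposited value plus 1 (vertical axis, log scale) of 8 genes in inguinal, cervical and mesenteric lymph nodes, 1 point per library, with aged (circles) left of young (squares) at each site and the fat-rich inguinal library of aged mouse 3 as an open diamond. C130026I21Rik, Dapl1, Cd8b1 and Als2cl keep the same order of groups at all 3 sites, and Ifit3 does not.

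The calls without aged mouse 3 rest on 2 aged libraries. When each further library was left out in turn, the number of called genes was 12 without aged mouse 1, 20 without aged mouse 2, 15 without young mouse 1, 39 without young mouse 2 and 43 without young mouse 3; where 1 aged library was left, it was assumed to vary like the young ones. Of the 41 genes, 10, 17, 13, 25 and 25 kept their call in these fits. In every one of the 5, 7 genes were called: Ccl8, Cma1 and Tpsb2, higher in aged, and Als2cl, Cd8b1, Dapl1 and Glycam1, lower. In none of the 5 were Cxcl12, Cxcr6, Ppp1r9b, Atp1b3 and Tmie called. S100a4 and Cd163l1 lost their call without aged mouse 1, and Cd5l and Traf3ip3 without aged mouse 1 or young mouse 1. The call was lost for Slamf9 without either aged mouse, and Mapk12 and Tns2 without either aged mouse or young mouse 1. The remaining 13 that were not named above with their libraries were called in only 1 of the 5. Atf6, Lgmn, Apol7c and Klrd1 were called without young mouse 2, and Marco, Sparc, Tnfrsf1b and Pf4 without young mouse 3. Pced1b and Wfdc17 were called without aged mouse 1, S100a6 without young mouse 1, and Ccdc116 and Prss50 without aged mouse 2. With limma run without the mean-variance trend and without robust settings, no gene passed and 721 had an unadjusted p under 0.05, so all 41 calls also rest on that setting. A fit on read weights (voom) called 74 genes, of which 35 were among the 41, with 61 higher and 13 lower in aged, a more uneven split than 23 to 18.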

How the data were processed

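RNA-seq of 6 inguinal lymph node libraries was compared between 3 aged and 3 young mice, each library a mouse of its own. The deposited values are a signal: judged from the values, weighted reads per RefSeq transcript times 1 factor per library, since 78.9% to 85.6% of the authors' values above 0 were whole multiples, within 0.001 of a step, of the value worth 1 read. Whole counts were not recovered, so no count test was run. Per the submitters' processing notes, TopHat was the aligner and mm9 the genome build; version, counting tool, use of strand and scaling are not stated in those notes or the labels. There was 1 column, for cervical nodes, that no label names, and it was not used here.

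Of 25865 transcripts, 25311 were named by RefSeq accession, 366 by symbol, 88 by an older symbol and 100 by the symbol in the table. Each gene was represented by its transcript of highest mean, giving 20587 genes; transcripts differed in 886. Identical values are held by Ccl21a and Gm1987, Gbp6 and Gbp10, Hbb-b2 and Hbb-bt, and Hba-a1 and Hba-a2, among others.

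limma 3.58.1 (R 4.3.3; trend and robust settings, two-sided) was fitted on log2 of the value plus the median value of 1 read: 1.41 for all 6 libraries, 1.33 without aged mouse 3, and 1.11 for 17 libraries of 3 lymph node sites, with the mouse as a term. A gene was tested where 3 libraries (2 without aged mouse 3) reached 5 times this pseudocount, and a call needed a Benjamini-Hochberg adjusted p below 0.05 over all genes tested. The procedure was also run on simulated data, but no outcome is given here and no conclusion is drawn from it. P-values set a difference against the spread between mice of 1 age group, which limma pools over the genes tested. A small p therefore does not rest on the spread of that gene in these few mice alone.

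Named genes are the 10 higher and 10 lower with the largest differences among called genes whose groups do not overlap (filled by smallest p where fewer passed), up to 4 members with the smallest p per described list, 15 always named (a few are not reported here), and the 5 higher and 5 lower with the smallest p between sites; other called genes and those said to be chosen after their values were seen come on top. The split of list members by the age group that carried them past the filter was added after the values were seen. The members, lists and tests were chosen with earlier results of these data known. Promoter sequences are RefSeq (GRCm38.p6). Alternatives were another pseudocount, no filter, quantile normalization, no trend, voom, array weights, a replicate block and leaving out each library.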

Additional observations from a re-analysis of the deposited data

How the results depend on the processing

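With all 6 libraries, 0 genes were called by limma (409 with an unadjusted p under 0.05), and 0 in every alternative except 2 (190 to 698 at an unadjusted p under 0.05): array weights gave 5, and leaving out 1 library in turn gave 0 to 41, with 41 only without aged replicate 3. Without aged replicate 3, where 41 were called, the count was 9 with no filter, 0 without trend or robust settings (721 with an unadjusted p under 0.05), 74 with voom, 70 with array weights, and 12 to 43 when a further library was left out. A pseudocount at the smallest values gave 34, one 4 times as large 59 and quantile normalization 44. Deviations of mice of the same number correlated at -0.066, -0.09 and -0.22, and those of mice of unlike number at -0.148 to 0.202. These values cannot decide whether mice of the same number pair, as they include aged replicate 3, the library that stood apart. Without aged replicate 3, the fit with the replicate number as a block gave 197 calls, 41 of them those of the fit without the block. Differences that changed sign in the fits without aged replicate 3, with the range when a further library was left out, were those of Adipoq (0.08 without young replicate 1; -2.08 to 0.08), Ccr7 (0.01 with the replicate block, 0.02 without young replicate 1 and 0.01 without young replicate 3; -0.23 to 0.02), Cd3e (0.19 without aged replicate 2; -0.65 to 0.19), Cd74 (-0.03 without aged replicate 1; -0.03 to 0.26) and Cxcl13 (-0.24 without aged replicate 2 and -0.14 without young replicate 2; -0.24 to 0.36). None of these was called, and the cause was not tested. Between the lymph node sites, 0 genes were called by limma in every alternative run, with 356 to 1167 at an unadjusted p under 0.05. Of the other values without aged replicate 3, 1391 stayed on the same side of the threshold with the same sign, 201 lost and 56 gained the call. At 371029 to 702242 reads per library, genes of few reads could not be resolved.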
